A study of Apostichopus japonicus with 9 samples.

Results

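The 100 most abundant intestinal transcripts of the sea cucumber Apostichopus japonicus are described here across 3 salinities. For each gene model the estimated count was expressed as a percent of its library's total, with a missing value taken as 0, and the 100 gene models with the highest mean percent over 9 libraries were kept from the 27269 that had a line in any library. They are 0.367% of the gene models and took 56.5% of the estimated counts on average. Because these same percents chose the members, the percents are given as descriptions without a test. The libraries came from sea cucumbers kept at 15 °C and assigned to control sea water (SD30, labelled salinity 30), diluted sea water (SD20, labelled 20) or concentrated sea water (SD40, labelled 40), 20 animals per group, with the salinity of the treated groups moved in steps of 2.5 per 6 h. Each group has 3 libraries, each made from the pooled intestinal RNA of 3 animals. Strain, age and sex are not among the labels used here, nor is the time spent at the final salinity. Nothing in the labels says that the pools came from separate tanks, so the p-values reflect only how far pooled libraries differ, and that spread may be technical.

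The intestine of a sea cucumber digests organic matter taken up with sediment, and its wall holds a digestive epithelium, muscle, connective tissue and coelomocytes, the immune cells of the body cavity. Sea cucumbers are osmoconformers, which means that their body fluid follows the salt content of the surrounding water, and their cells meet the change largely by adjusting ions and small organic solutes. In a tissue specialised for secretion, a few transcripts usually make up much of the messenger RNA, and in a sequencing library the reads taken by these transcripts are not available to the others. A share of counts is therefore always relative to the rest of the library. Gene models are known here only by AJAP numbers, which the files do not pair with gene names, and 0 of the 100 match the species' RefSeq table (assembly ASM3797524v1). Neither a role nor a sequence can be given for any of them, and the labelled tissue could not be checked against marker genes. In RNA from whole tissue, fewer cells of a type and less RNA per cell cannot be told apart.

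The libraries held 2834168 to 4060892 estimated counts, and 17306 to 22747 gene models had reads. The widest 95% Wilson interval of any member's share in any library reached 0.0417 percentage points to each side, and such intervals cover counting error only. For members with few counts the relative error is large. The normalisation factors by which the library totals were adjusted (TMM, a trimmed mean of gene-wise ratios) ranged from 1.34 to 1.42 at low salinity, from 0.492 to 1.18 in the control and from 0.996 to 1.12 at high salinity. The lowest were those of SD30 replicate 2 (0.492) and SD30 replicate 1 (0.571).

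The members' joint share was lowest in the SD20 group and in a library of SD40, and most uneven in SD30. It was 51.6%, 51.04% and 49.3% at low salinity, 66.0%, 75.4% and 55.1% in the control, and 56.9%, 54.3% and 48.4% at high salinity. Each SD30 library except replicate 3 lay above all libraries of the other groups, and SD40 overlapped both. The group means were 50.7% ± 1.20, 65.5% ± 10.2 and 53.2% ± 4.37 (SD, n = 3 each). The composition behind these sums differed between the SD30 libraries. In SD30 replicate 2 the first 3 members alone took 49.0%, against 12.2% to 29.5% in the other 8 libraries. In SD30 replicate 1 the first 3 took 22.1%, and the members ranked 11 to 100 took 27.6%, the highest value among the libraries. SD40 replicate 3 was close to it with 27.3% for ranks 11 to 100, and it had the lowest share for the first 3 members.

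**Figure D1:**
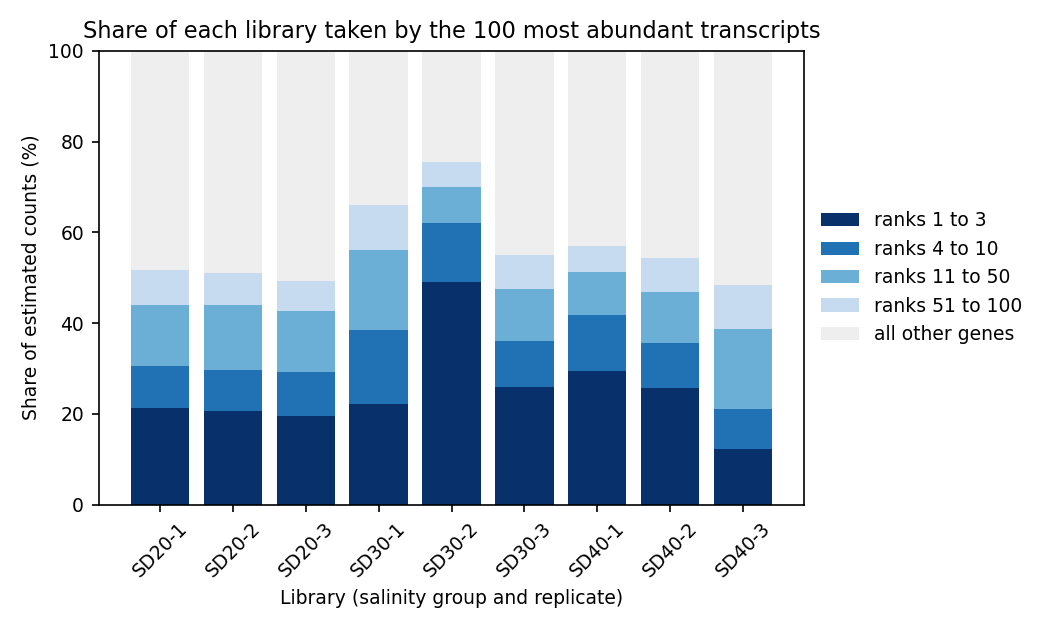
Share of the estimated counts (%) in each of the 9 libraries taken by the members ranked 1 to 3, 4 to 10, 11 to 50 and 51 to 100 by mean share, and by all other genes. The members together took 48.4% to 75.4% of a library, and SD30 replicate 2 stands out by the 49.0% of its first 3.

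Abundance was concentrated in the first ranks. The first 10 members took 36.0% of counts on average and the first 50 took 49.0%. Only 10 members reached a mean share of 1% or more, and 48 stayed under 0.2%. At the end of the list the values are almost level. AJAP29172 and AJAP18076, the last members inside the list, had mean shares of 0.106% and 0.106%, and AJAP04555 and AJAP05979, the first genes outside it, had 0.106% and 0.104%. The last places are thus set by very small differences.

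Membership was shared by most libraries but not by all. Of the 100 members, 51 were among the 100 most abundant genes of each of the 9 libraries, 26 were so in 5 to 8 libraries, and 23 in 1 to 4. A library's own 100 most abundant genes included 74 to 85 of the members, and 206 different genes appeared in at least 1 such list. Ranking by the median share instead of the mean kept 85 members, and leaving out a library kept 90 to 99. The lowest number, 90, came from leaving out SD30 replicate 1. The members lost in that case included 8 that varied together and are described further down.

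The members were of ordinary length. Their median listed length was 856.5 bases (quartiles 549.75 and 1450.5), against 951 bases for all gene models (618 and 1479), and 56 members were shorter than 1000 bases, where 53.1% of all gene models are. Lengths were multiples of 3 for 95 members and 93.5% of all gene models, as for a coding length without UTRs. A share of counts favours long gene models, and for levels compared between genes the authors' FPKM values, which are scaled by length, are the better measure. By mean FPKM, 70 members were among the 100 highest genes. The highest mean FPKM belonged to AJAP12149 (61329), followed by AJAP00345 (29632), AJAP07139 (29344), AJAP07929 (20792) and AJAP29663 (16187). AJAP00345 and AJAP07139 are short, with 522 and 246 bases, and by count share they hold ranks 6 and 12. AJAP07139 and AJAP26546, of 250 bases, are the shortest members.

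AJAP07139 also differed widely between pools of a group. Its FPKM was 35634, 27409 and 30355 at low salinity, 7883, 21983 and 51573 in the control, and 9534, 3787 and 75936 at high salinity. The SD20 pools lay close together, while the lowest and the highest value of all 9 both fell in SD40. AJAP00345 behaved otherwise, at 19934 to 25432 FPKM in 8 libraries and 81409 in SD40 replicate 3.

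For 3 members the listed length exceeds 20000 bases, a property of 7 gene models in all. AJAP14103 is listed with 1761004 bases, AJAP11930 with 1505442 and AJAP18387 with 956092. Their mean shares were 1.36%, 0.647% and 0.270%, which gives them ranks 8, 11 and 33 by count, but their mean FPKM was only 7.47, 4.15 and 2.73. The median of the 100 members was 3099 FPKM and that of all gene models 2.59. These 3 are members by read number alone, and the files do not show what the long models contain. AJAP14103 took 1.40%, 1.25% and 1.32% at low salinity, 1.34%, 0.908% and 1.35% in the control, and 1.22%, 1.83% and 1.66% at high salinity.

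**Figure D2:**
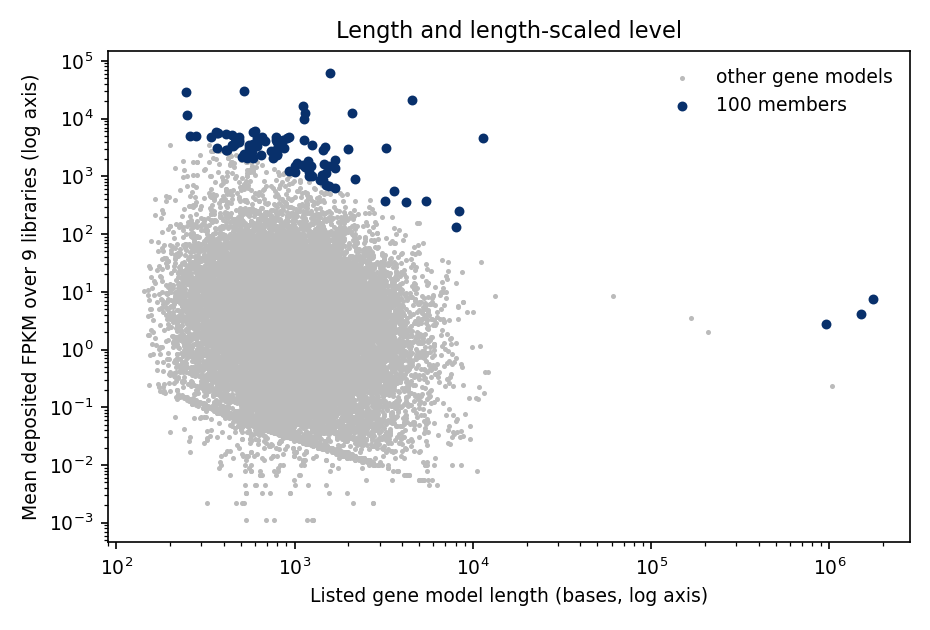
Mean deposited FPKM over the 9 libraries against the listed gene model length in bases, both on log axes, for the 100 members (dark) and all other gene models (grey). Most members lie along the upper edge of the cloud, and the 3 members listed with more than 20000 bases lie far to the right at 2.73 to 7.47 FPKM.

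How cleanly the reads can be assigned to a member differs. Fractions in an estimated count can come from reads shared out among similar sequences. In 60 members every library had a whole value (no decimals at all in the deposited 2), in 35 members no library had one, and in 5 members some had. Among the 768 other gene models with mean counts within 10-fold of the lowest member's, 47.3% were whole in all 9 libraries. Of the first 10, AJAP26202 and AJAP00345 were whole throughout, AJAP14103 was whole in 2 libraries, and the other 7 in none. The levels of members with values that are not whole are uncertain where near-identical copies exist.

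AJAP12149, of 1587 bases, was among the first 3 genes of every library. Its share was 7.36%, 7.004% and 6.33% at low salinity, 9.84%, 24.3% and 8.24% in the control, and 12.4%, 9.44% and 3.70% at high salinity. Every SD30 library exceeded every SD20 library, and the SD40 libraries ranged from below SD20 to above 2 of the SD30 libraries. AJAP07929, of 4554 bases, led in 6 of the 9 libraries. It took 9.29%, 7.71% and 9.92% at low salinity, 5.80%, 18.7% and 9.46% in the control, and 12.5%, 11.3% and 2.79% at high salinity, with overlap among all groups.

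AJAP26202 was steadier. This gene model of 11460 bases took 4.70%, 5.91% and 3.27% at low salinity, 6.495%, 6.02% and 8.12% in the control, and 4.63%, 5.0001% and 5.73% at high salinity. All SD30 libraries lay above all libraries of the other groups, although the nearest values, 6.02% and 5.91%, are close.

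AJAP21412, of 2094 bases, took 3.17%, 2.13% and 2.67% at low salinity, 1.34%, 4.34% and 3.10% in the control, and 5.32%, 1.74% and 0.522% at high salinity. AJAP29663, of 1116 bases, took 0.990%, 1.30% and 1.56% at low salinity, 1.21%, 4.36% and 1.41% in the control, and 2.11%, 2.64% and 0.703% at high salinity. AJAP24092, of 3276 bases, took 1.24%, 0.864% and 1.28% at low salinity, 0.500%, 1.51% and 1.12% in the control, and 1.53%, 1.06% and 0.177% at high salinity. In all of these, and in AJAP12149 and AJAP07929, the lowest value of the 9 libraries was that of SD40 replicate 3.

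AJAP00345 went the other way in that library, with 4.13% in SD40 replicate 3 and 1.00% to 1.28% in the other 8. AJAP28693, of 1128 bases, took 1.17%, 1.25% and 0.861% at low salinity, 0.616%, 0.559% and 1.90% in the control, and 0.896%, 1.22% and 1.64% at high salinity. It was lowest in the 2 SD30 libraries with the small normalisation factors. AJAP13414, of 1146 bases, owed its rank 7 to SD30 replicate 1. Its share there was 10.2%, while it was 0.00985%, 1.35% and 0.906% in SD20, 0.0127% and 0.0700% in the other SD30 libraries, and 0.0871%, 0.000192% and 0.0652% in SD40.

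**Figure D3:**
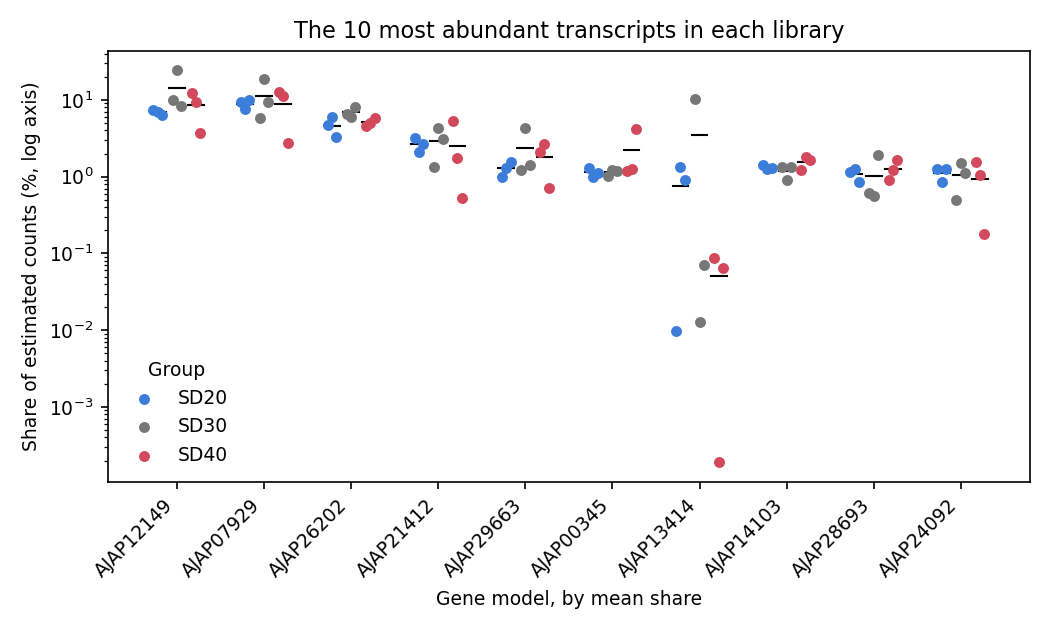
Share of the estimated counts (%, log axis) of the 10 most abundant members in each library, with points for libraries, colours for the salinity groups and black bars for the group means. The points of 9 of the 10 lie between 0.177% and 24.3%, while AJAP13414 runs from 0.000192% to 10.2%.

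Variation over the libraries was then measured on CPM, the count scaled by the normalised library size, as the SD of log2(CPM + 1). Its median was 0.56 over the members and 0.79 over the 14191 genes abundant enough to be tested, all 100 members among them. Within groups the medians were 0.49 and 0.73. The tested genes include many with far fewer counts, where counting error adds more to the SD. Genes of similar abundance were not compared, so the members are not shown to be steadier. The most even members were AJAP19203 (SD 0.32), AJAP16150 (0.33) and AJAP06873 (0.38). AJAP19203, of 372 bases, ranged from 1526 to 2948 CPM. The least even were AJAP09779 (SD 5.07), AJAP13414 (4.51) and AJAP15912 (4.11). AJAP09779 had 0 counts in SD40 replicate 2, which allows a share of up to 8.60e-05% by a limit of 3 counts, and 68075 CPM in SD30 replicate 1. An SD above 1 was found in 25 members, against 30.8% of all tested genes.

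Many members varied together. Over the 4950 pairs of members the median Pearson correlation of log2(CPM + 1) across the 9 libraries was 0.396, and 10.3% of pairs exceeded 0.9. Over all pairs of tested genes the median was 0.003, and 0.269% of pairs exceeded 0.9. These correlations rest on 9 points that share the same libraries and normalisation factors. The medians and percents of pairs were not computed with library totals, so a part owed to the factors cannot be told apart. The tested genes again include many with far fewer counts than the members. With the group means removed the medians were 0.283 for the members and 0.002 for all tested genes, and 12% and 0.573% of pairs exceeded 0.9. Average-linkage clustering with a cut at a correlation of 0.9 gave 4 groups of 5 or more members, named A to D here, which together hold 40 members. They were formed from these values and are described without a test.

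Group A holds 20 members, led by AJAP00345, AJAP03120 and AJAP27436. Its mean pairwise correlation was 0.948. They are short, with a median of 786 bases, and 19 of the 20 are under 1000 bases. Together they took 7.12%, 4.92% and 5.30% of counts at low salinity, 4.13%, 4.88% and 5.49% in the control, and 4.96%, 6.34% and 12.1% at high salinity. SD40 replicate 3 is the highest library by this measure, and SD30 replicate 1 the lowest. On the CPM scale the order differs, because the normalisation factors of SD30 replicates 1 and 2 are small, and SD40 replicate 3 and SD30 replicate 2 are the highest there. The variation of single members was small, with SDs of log2(CPM + 1) from 0.41 to 0.80. With libraries scaled to their totals, 15 of the 20 stayed in the same cluster, and with the group means removed 19 did. When a library was left out, 16 to 20 stayed together.

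Group D, with AJAP13942, AJAP23933 and AJAP21611 as its most abundant members, also consists of short gene models. Its 5 members are 447 to 543 bases long and took 0.496% to 1.16% of counts per library. Group C, with AJAP11194, AJAP18387 and AJAP19766 in front, took 0.823% to 1.71%. Its 5 members no longer clustered with one another when libraries were scaled to their totals, where 1 of the 5 was left. At a cut of 0.8 the groups A, C and D fell into 1 cluster of 38 members.

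Group B was of another kind. Its 10 members, led by AJAP13414, AJAP09779 and AJAP21001, are 489 to 2184 bases long and had a mean pairwise correlation of 0.959. Their SDs of log2(CPM + 1) were 3.50 to 5.07. The group took 0.0506%, 3.73% and 2.82% of counts at low salinity, 25.5%, 0.0582% and 0.387% in the control, and 0.249%, 0.00235% and 0.209% at high salinity. In SD30 replicate 1 its counts summed to 858822, and in SD40 replicate 2 to 82. Single members had 0 to 32 counts in SD40 replicate 2, so counting error is large on the log2 scale there. High and low libraries occurred both within SD20 and within SD30. Each of the 10 members had more than 50% of its summed share in SD30 replicate 1, and no other member did so in any library. Without that library 8 of the 10 would not be members at all, the exceptions being AJAP13414 and AJAP21001. All 10 stayed in 1 cluster with library totals and with group means removed. They also did so without any single library other than SD30 replicate 1, whose omission left 7 together, and by rank correlation 5 stayed together.

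**Figure D4:**
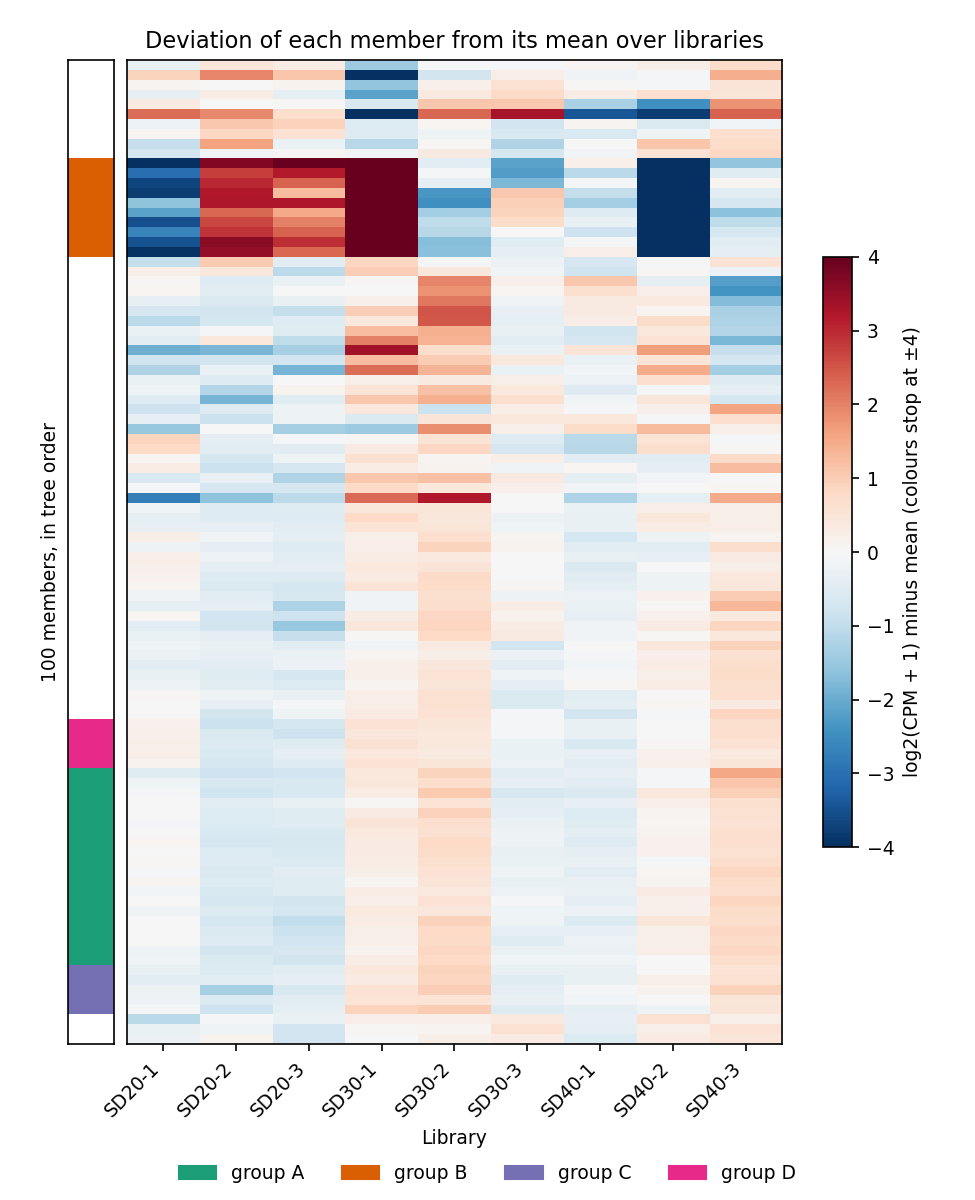
Log2(CPM + 1) of each of the 100 members (rows, in the order of the clustering tree) in each library (columns) as the deviation from the member's mean over the 9 libraries. The strip at the left marks groups A to D. Group B is far above its mean in SD30 replicate 1 and far below it in SD40 replicate 2, whereas groups A, C and D differ by much less.

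Some of the most abundant members formed smaller clusters at the same cut. AJAP12149, AJAP07929 and AJAP29663 were joined, with a lowest pairwise correlation of 0.929, and AJAP21412 was joined to AJAP24092 at 0.962. The long models AJAP14103 and AJAP11930 were joined with AJAP06873, with 0.945 as the lowest value. AJAP26202 was in no cluster with another member.

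Salinity was then compared gene by gene in a fit of all 14191 tested genes, beginning with low salinity. For SD20 against SD30, edgeR's quasi-likelihood test gave 0 members an adjusted p under 0.05 (lowest member 0.370), and it called 0% of all tested genes. An unadjusted p under 0.05 was found for 17 members, 2 higher and 15 lower in SD20. Among all tested genes 12.2% had such a p, 5.57% higher and 6.67% lower. With libraries scaled to their totals the 17 became 11, of which 9 were higher and 2 lower, beside 18.6% of all tested genes (17.3% higher and 1.22% lower). The direction of the members as a whole thus depends on the scaling. Omission of SD20 replicate 3 turned the 17 into 9, and there were 11 without SD20 replicate 2 or SD30 replicate 2, and 28 without SD30 replicate 3. DESeq2 called 5 members at an adjusted p under 0.05, all lower in SD20, beside 2.45% of all tested genes (0.606% higher and 1.85% lower). Its unadjusted p was under 0.05 for 27 members, 3 higher and 24 lower, beside 16.2% of all tested genes (7.12% higher and 9.08% lower).

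The members were also set beside all tested genes. A change of scaling moves the log2 fold changes of all genes by a similar amount, so agreement between scalings is no separate check. The members' median log2 fold change was -0.71 where that of all tested genes was 0.07. With library totals it was 0.26 where that of all genes was 0.92. Under both scalings 94 of the 100 members lay below the median of all genes. The difference of the medians was -0.77, it was -1.12 to -0.69 when a library was left out, and limma on log2(FPKM + 1) without a filter gave -0.25. The members were chosen by shares that include the same SD30 libraries, so nothing is read from this difference. In 28 members no CPM value of SD20 lay within the range of SD30, 2 higher and 26 lower in SD20, beside 22.1% of all tested genes (13% higher and 9.06% lower). With library totals the 28 became 22, of which 16 were higher and 6 lower, beside 31.1% of all tested genes (29.8% higher and 1.32% lower).

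AJAP26202 and AJAP24907 had the smallest p among members lower at low salinity. AJAP26202 stood at 35327, 44689 and 23385 CPM in the diluted sea water, at 114279, 122969 and 69126 CPM in the control, and at 42072, 50567 and 54838 CPM in the concentrated sea water. Every control library lay above every other library. For low salinity edgeR gave a log2 difference of -1.57 with an SE of 0.35 and an adjusted p of 0.370, that is a 2.96-fold lower level, and omission of a library gave -1.84 to -1.35. With library totals the log2 difference was -0.56, and the adjusted p was 0.0113 in DESeq2 (0.0113 to 0.758 over all alternatives). AJAP24907, of 1419 bases and rank 74, averaged 841 ± 19.8 CPM in SD20 and 2738 ± 742 CPM in SD30 (SD, n = 3 each), from 825, 864 and 835 CPM against 3394, 2886 and 1933 CPM. The groups did not overlap, and the SD30 libraries were far more spread than those of SD20. The log2 difference in edgeR was -1.70 with an SE of 0.41 and an adjusted p of 0.370, it was -0.71 with library totals, and DESeq2 gave an adjusted p of 0.00904 (0.00904 to 0.758 over all alternatives). Both genes had whole counts in every library and lower shares in every SD20 library than in any SD30 library.

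AJAP16542 and AJAP29056 had the smallest p among members higher at low salinity. AJAP16542, of 1989 bases and rank 13, took 0.546%, 1.36% and 1.27% of the SD20 counts against 0.188%, 0.253% and 0.336% of the SD30 counts. These shares did not overlap, but in CPM the lowest SD20 value, 4106, was under the highest SD30 value, 5160. The log2 difference in edgeR was 1.05 with an SE of 0.43 and an adjusted p of 0.398, and with library totals 2.05. AJAP16542 had a whole count in 0 libraries, so its level is uncertain where near-identical copies exist. AJAP29056, of 3591 bases and rank 47, stood at 1859, 3106 and 2626 CPM in SD20 against 1234, 1514 and 1150 CPM in SD30. The groups did not overlap. edgeR gave a log2 difference of 0.96 with an SE of 0.41 and an adjusted p of 0.402, and with library totals 1.89.

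**Figure D5:**
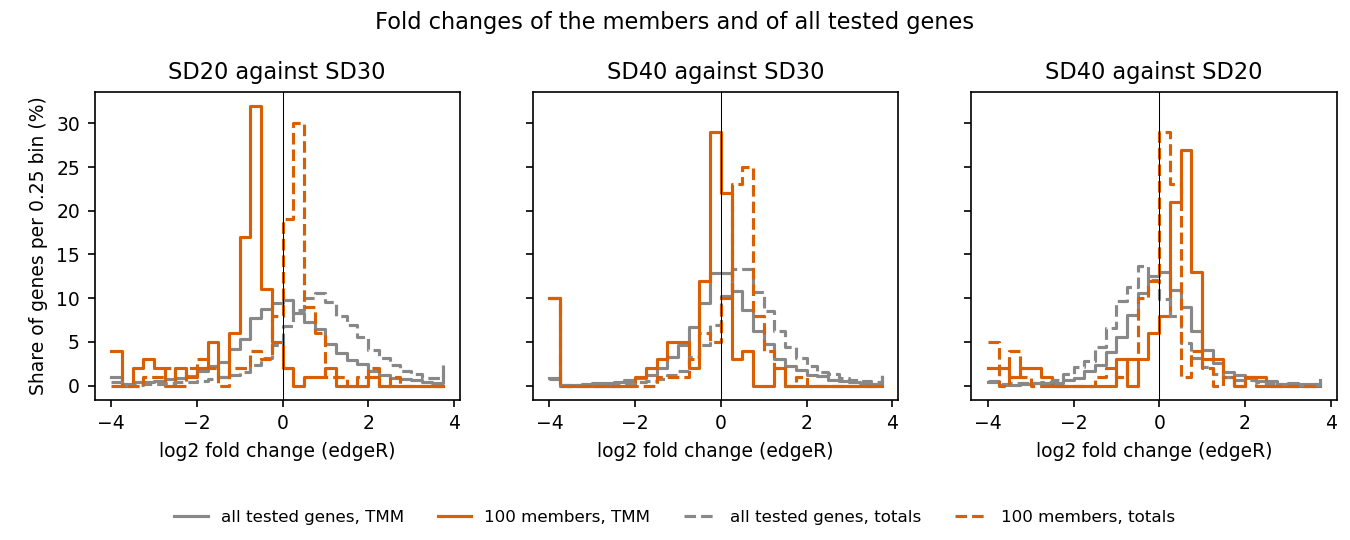
Distribution of edgeR log2 fold changes for the 100 members (orange) and all 14191 tested genes (grey) in the 3 comparisons, with TMM scaling (solid) and with library totals (dashed), as percent of genes per bin and with values beyond 4 in either direction placed in the end bins. For SD20 against SD30 the members lie to the left of all genes. In the comparisons with SD30 the change from TMM to library totals moves both distributions to the right, and the members' median across 0. For SD40 against SD20 it moves both to the left.

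High salinity was compared with the same 3 control libraries. Here too edgeR's test gave 0 members an adjusted p under 0.05 (lowest member 0.770) and called 0% of all tested genes. DESeq2 called 0 members and 0.31% of all tested genes (0.106% higher and 0.204% lower). An unadjusted p under 0.05 in edgeR was found for 15 members, all lower in SD40, beside 6.3% of all tested genes (3.47% higher and 2.83% lower). With library totals the number was 15 again, of which 7 were higher and 8 lower, beside 8.74% of all tested genes (7.72% higher and 1.02% lower). The unadjusted p of DESeq2 was under 0.05 for 9 members, all lower, beside 8.16% of all tested genes (4.37% higher and 3.79% lower). Of the 15 in edgeR, 9 belong to group B, and DESeq2 gave no p for 9 of the group B members. With library totals, all 8 lower members belong to group B. Without SD30 replicate 1, 8 members of group B would be outside the list. The choice of members thus favours a lower level of group B in SD40, and nothing is read from it. Without SD30 replicate 1 the 15 became 2 and none of group B was left. The 15 became 4 without SD40 replicate 1 and 7 without SD40 replicate 3, and the 9 of group B became 1 and 2, and 3 without SD40 replicate 2.

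The SD40 and SD30 libraries did not overlap in CPM for 5 members, 1 higher and 4 lower in SD40, beside 9.46% of all tested genes (5.59% higher and 3.87% lower). With library totals there were 14, of which 13 were higher and 1 lower, beside 12.2% of all tested genes (11.4% higher and 0.768% lower). The median log2 fold change was -0.18 over the members and 0.11 over all genes. The difference, -0.30, became -0.18 without SD30 replicate 2 and also with library totals, -0.62 without SD30 replicate 3, -0.58 without SD40 replicate 3 and 0.09 without SD40 replicate 1. With limma on log2(FPKM + 1) it was -0.12, and 0.07 without the filter, so its direction is not stable. Here too the members were chosen by shares that include these libraries, and nothing is read from the difference.

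AJAP26202 had the smallest p of the members here too, and from the CPM values above edgeR gave a log2 difference of -1.05 with an SE of 0.34 and an adjusted p of 0.770. With library totals the difference was -0.42, and with limma on log2(FPKM + 1) it was -0.43. AJAP07124 of group B came next among the lower members. It had 27613, 82 and 799 counts in SD30 and 337, 2 and 100 in SD40, so that only SD30 replicate 1 was far above the rest. edgeR gave a log2 difference of -7.05 with an SE of 2.45 and an adjusted p of 0.770, and without that library the difference was -1.84. With limma on log2(FPKM + 1) it was -4.23.

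AJAP05470 and AJAP26546 had the smallest p among members higher at high salinity. AJAP05470, of 1455 bases, took 0.0466%, 0.0900% and 0.0901% of the SD30 counts and 0.193%, 0.380% and 0.310% of the SD40 counts. These shares did not overlap, but the CPM values did. edgeR gave a log2 difference of 1.32 with an SE of 0.68 and an adjusted p of 0.770. AJAP05470 had a whole count in 0 libraries, with the same uncertainty about near-identical copies. AJAP26546 averaged 1664 ± 755 CPM in SD30 and 2788 ± 680 CPM in SD40 (SD, n = 3 each), without overlap. The log2 difference was 0.74 with an SE of 0.45 and an adjusted p of 0.778 in edgeR, and it was 0.37 without SD30 replicate 1, 1.15 with library totals and 1.44 with limma on log2(FPKM + 1).

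High and low salinity were also compared directly. For SD40 against SD20, edgeR gave 0 members an adjusted p under 0.05 (lowest member 0.740) and called 0.00705% of all tested genes, and DESeq2 called 0 members and 0.543% of all tested genes (0.352% higher and 0.19% lower). An unadjusted p under 0.05 in edgeR was found for 7 members, all higher in SD40, beside 6.44% of all tested genes (4.03% higher and 2.41% lower). With library totals there were 4, of which 2 were higher and 2 lower, beside 5.03% of all tested genes (1.8% higher and 3.23% lower). The unadjusted p of DESeq2 was under 0.05 for 9 members, all higher, beside 8.8% of all tested genes (5.19% higher and 3.61% lower). Omission of SD20 replicate 1 turned the 7 into 3, and there were 2 without SD20 replicate 2, 0 without SD20 replicate 3, 4 without SD40 replicate 2 and 19 without SD40 replicate 1.

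The median log2 fold change between SD40 and SD20 was 0.48 over the members and 0.04 over all genes, and 77 members lay above the median of all genes. With library totals the medians were 0.11 and -0.33, and 78 members lay above. The difference of the medians, 0.44, became 0.24 without SD40 replicate 3 and 0.75 without SD40 replicate 1. The members were chosen by shares that include these libraries, so nothing is read from this difference or from its agreement between scalings. The libraries did not overlap in CPM for 21 members, all higher in SD40, beside 13.4% of all tested genes (6.93% higher and 6.44% lower). With library totals the 21 became 2, both higher, beside 16.3% of all tested genes (2.82% higher and 13.5% lower).

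AJAP08886, of 1677 bases and rank 40, was the member with the smallest p in this comparison. It stood at 1675, 1332 and 778 CPM in the diluted sea water, at 3049, 4102 and 2738 CPM in the control, and at 2028, 2832 and 4096 CPM in the concentrated sea water. In CPM all SD20 libraries lay below all others. As shares of counts, the SD20 values of 0.2226%, 0.176% and 0.109% overlapped the SD30 values of 0.173%, 0.201% and 0.321%. The SD40 shares were 0.2232%, 0.280% and 0.428%, so the nearest SD20 and SD40 values were almost level. The log2 difference between SD40 and SD20 was 1.24 in edgeR, with an SE of 0.42 and an adjusted p of 0.740, and with library totals 0.87. AJAP08886 had a whole count in 0 libraries, so its level too is uncertain where near-identical copies exist. AJAP16119, of 1002 bases and rank 88, stood at 196, 215 and 305 CPM in SD20 against 1095, 2429 and 397 CPM in SD40. The groups did not overlap in CPM, but their shares of counts did. edgeR gave a log2 difference of 2.45 with an SE of 0.95 and an adjusted p of 0.740, and omission of a library gave 1.60 to 2.90. Without SD40 replicate 2 AJAP16119 would be outside the list, and likewise without SD30 replicate 1. The choice of members thus favours a higher level of this gene in SD40, and nothing is read from it.

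Among members lower in SD40 than in SD20, AJAP16542 had the smallest p, and edgeR gave a log2 difference of -0.85 with an SE of 0.43 and an adjusted p of 0.793. It stood at 4106, 10310 and 9075 CPM in SD20 against 5225, 3271 and 4520 CPM in SD40. The groups overlapped in CPM and in shares of counts. AJAP21001 of group B followed. Its SD20 shares of 0.0213%, 0.609% and 0.650% overlapped its SD40 shares of 0.0209%, 0.000201% and 0.0323%. The log2 difference in edgeR was -4.23 with an SE of 2.16 and an adjusted p of 0.798.

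The co-varying groups were formed from the same values, so nothing is read from a shared sign of their members' fold changes. In SD20 against SD30 all 20 members of group A had negative log2 fold changes, with a median of -0.71, but 0 had an unadjusted p under 0.05, and with library totals 19 of the 20 were positive. In SD40 against SD30, 12 of the 20 were positive, with a median of 0.02, and with library totals all 20 were positive. In SD40 against SD20 all 20 were positive under both scalings, with a median of 0.69 and, with library totals, 0.31, and 1 had an unadjusted p under 0.05 in edgeR. The median of 0.69 became 0.33 without SD40 replicate 3, and without SD40 replicate 1 the 1 became 8. For group B the median log2 fold change was -3.09 in SD20 against SD30, but 2.79 without SD30 replicate 1, -1.86 with library totals and -0.16 with limma on log2(FPKM + 1), so its direction rests on that library. In SD40 against SD30 the median was -6.41, and -0.77 without SD30 replicate 1.

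When the first 10 members and group B are set aside, the other 81 members took 28.2% ± 1.94 of the remaining counts at low salinity, 30.5% ± 4.39 in the control and 29.7% ± 4.41 at high salinity (SD, n = 3 each). These ranges overlapped among all groups, from 26.4% to 30.3%, from 26.8% to 35.4% and from 25.7% to 34.4%.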

How the data were processed

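Poly(A) RNA of pooled intestines was sequenced on a BGISEQ instrument, per the labels' protocols. The authors deposited an estimated count for each gene model, without normalization, per the file headers. They also deposited FPKM, scaled by the listed length, per the file headers. The submitters' processing notes name CASAVA 1.5, and nothing on alignment, counting, build or annotation is given in the sources used here. The members and lists were chosen with earlier results of these data known. Library totals were 2834168 to 4060892 estimated counts.

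Counts were rounded, and edgeR 4.0.16 (R 4.3.3) was used with filterByExpr, TMM and a robust quasi-likelihood fit to the salinity groups over 9 libraries. Benjamini-Hochberg adjustment covered 14191 genes. An SE equals the log2 fold change over the root of F. Alternatives were library totals, RLE factors, no count filter, DESeq2 1.42.0, limma 3.58.1 (FPKM with pseudocounts of 1 or 0.1, with or without a filter on low FPKM), fits to pairs of groups, a replicate block, and omission of each library. Clustering used scipy 1.17.1. The edgeR test was also run on simulated counts, drawn for each gene separately from its fitted spread. Such counts hold no shift shared by the genes of a library, so that run does not bear on the co-varying groups. Named members are the first 10 by share, the 2 smallest p per direction and comparison, the 3 most and least variable, those next to the end of the list, the leaders of co-varying groups, the extremes of length and the 5 highest by FPKM. Members of smaller clusters were named after their values were seen. Lists of marker and pathway genes could not be matched to the identifiers.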

Additional observations from a re-analysis of the deposited data

How the results depend on the processing

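No member passed edgeR's adjusted threshold in any comparison under any alternative run, and the calls by DESeq2 were the 5 for SD20 against SD30. The number of members at an unadjusted p under 0.05 moved by more than 1.5 times as follows. For SD20 against SD30 the 17 became 11 with library totals, 27 with DESeq2, and 9, 8 and 8 with limma on log2(FPKM + 1), on log2(FPKM + 0.1) and without the filter, and 9 to 28 without a library. For SD40 against SD30 the 15 became 8 without the filter on low counts, 9 with DESeq2, 7, 6 and 4 with limma in the same order, all of them higher in SD40, 6 with the replicate block, and 2 to 20 without a library. For SD40 against SD20 the 7 became 4 with library totals, 3, 2 and 1 with limma, 2 with the replicate block, and 0 to 19 without a library. For DESeq2, 10 members had no p in any comparison. The cause of the other changes was not tested. The 12 named fold changes kept their sign under all alternatives. They were picked for a small p in the main fit, and the alternatives reuse the same libraries, so this is no separate support. Their size could move widely, for AJAP07124 in SD40 against SD30 from -8.15 to -1.84 without a library.

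As percent of TPM (computed from the deposited counts and lengths), the members took 43.1% in SD20, 54.9% in SD30 and 45.1% in SD40. The 100 most abundant genes of each library itself took 52.3% in SD20. With members chosen anew without each library, the share ranged from 50.4% to 51.4% at low salinity, from 60.6% to 71.0% in the control and from 51.1% to 55.5% at high salinity. Ranking by FPKM kept 70 members. A correlation cut of 0.8 put 70 members into co-varying groups, against 40 at 0.9 and 36 to 50 without a library.

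The deviations from the group means had correlations from -0.113 to 0.203 for libraries with the same replicate number, against -0.280 to 0.247 for other pairs. No pairing by number was seen, but 3 libraries per group cannot exclude it. With the replicate block the 17 for SD20 against SD30 became 12, and the median log2 fold change of group B in that comparison was 0.68 instead of -3.09. Depth limits the log2 values of group B, whose members had 0 to 32 counts in SD40 replicate 2.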
